A study of Rattus norvegicus with 12 samples.

Results

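Amino acid transporter genes of the Slc1, Slc3, Slc6, Slc7, Slc36, Slc38 and Slc43 families were followed in skin-derived precursors (SKPs) of newborn rats exposed to 3 drug treatments. All genes of these families that the array measured by a feature with exactly 1 gene symbol were taken, whatever their level or response. The families themselves were chosen with earlier results of these data known. This gave 57 of 18166 genes, namely 7 of Slc1, 2 of Slc3, 15 of Slc6, 15 of Slc7, 4 of Slc36, 11 of Slc38 and 3 of Slc43. Of the 57 genes, 45 had a mean log2 value at or above the low-signal limit of 5.83, which is the 25th percentile of features with a symbol, and were tested among 13636 genes.

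SKPs are precursor cells of the dermis that grow as floating spheres in culture, and they came here from Sprague-Dawley pups in 3 independent isolates. Each group had 3 arrays of cultures kept for 24 h in the same growth medium, which held the growth factors FGF2 and EGF and the supplement B27. One group received trimebutine maleate plus trametinib, each at 100 nM, another alprostadil at 100 nM, a further one trimebutine maleate alone at 100 nM, and the last the vehicle. Trametinib blocks MEK, the kinase that activates ERK downstream of such growth factors. Alprostadil is prostaglandin E1, and trimebutine is a drug for gut motility. Trametinib was given only together with trimebutine, so its addition was measured as trimebutine plus trametinib against trimebutine.

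Defining genes of SKPs and dermal cells were present throughout: all 13 measured of 14 listed were above the low-signal limit in all 4 groups. Their mean level per array lay between 10.64 and 10.77 on the log2 scale. Twist1 (5.93) and Sox9 (6.46) were near the limit, as given by their means with trimebutine plus trametinib. All 12 macrophage and leukocyte markers were above the limit too, with mean levels per array from 7.70 to 9.24. Markers of other skin cells had mean levels per array closer to the limit, which most genes pass by construction: 6.44 to 6.83 for Schwann and glial genes (6 of 7 measured above it), 5.94 to 6.19 for keratinocyte genes (4 of 5), 5.73 to 6.11 for endothelial genes (2 of 3) and 5.30 to 5.58 for melanocyte genes (2 of 6). Each array measured the RNA of a whole culture, in which fewer cells of a type and less RNA per cell cannot be told apart. The p-values are two-sided and rest on the spread between these cultures.

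Amino acids cross membranes through carriers of the solute carrier (SLC) families. Some carriers exchange one amino acid for another and some use the gradient of sodium or protons. A group of Slc7 proteins reaches the cell surface only when bound to a heavy chain, Slc3a2 or Slc3a1. When amino acids run short, cells translate the transcription factor ATF4, and genes for several of these carriers and for amino acid synthesis are known targets of it. Leucine and arginine that enter the cell or leave the lysosome signal to the growth kinase complex mTORC1. In fibroblasts and their precursors, glycine, proline, glutamine and cystine supply collagen, nucleotides and glutathione.

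Adding trametinib to trimebutine raised 16 of the 45 tested transporter genes and lowered 3. The genes that rose included the leucine carrier gene Slc7a5 (1.41 on the log2 scale), the neutral amino acid exchanger gene Slc1a4 (1.26), the glycine carrier gene Slc6a9 (1.25) and the arginine carrier gene Slc7a1 (1.06). The genes that fell were the glutamate carrier gene Slc1a1 (−1.57), the arginine carrier gene Slc7a2 (−0.70) and Slc36a4 (−0.59). These differences of mean log2 values (n = 3 arrays per group) are from limma, and a gene passed at a Benjamini-Hochberg adjusted p under 0.05 over all 13636 genes. The 16 rises were 35.6% of the tested transporter genes, where 16.8% of all tested genes rose. The 3 falls were 6.67% of them, where 16.6% of all tested genes fell. In either direction 42.2% passed, beside 33.4% of all genes. The other 26 did not pass.

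The median difference over the 45 genes was 0.17, against 0.03 over all tested genes, and 34 of the 45 differences were above 0. The groups did not overlap for 21 of the 45, a share close to the 45.8% of all tested genes whose groups did not overlap. With the replicate number as a block, 19 rose, where 21.2% of all genes did, and 6 fell, where 20.8% did. All 19 genes called without the block were called with it. SKP and dermal markers also moved when trametinib was added, in both directions: 3 of 13 rose, 4 fell and 6 did not pass, with differences from −1.09 to 0.83. Twist2 (0.83) and Thy1 (0.50) were among the rises and Pdgfra (−0.79) and Dlk1 (−0.58) among the falls, and the part of such changes in the transporter values was not tested. A moderated F test over the 4 groups found a difference in 18 of the 45 genes, where 32.5% of all genes differed, and in 23 with the block, where 42.7% did.

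**Figure D1:**
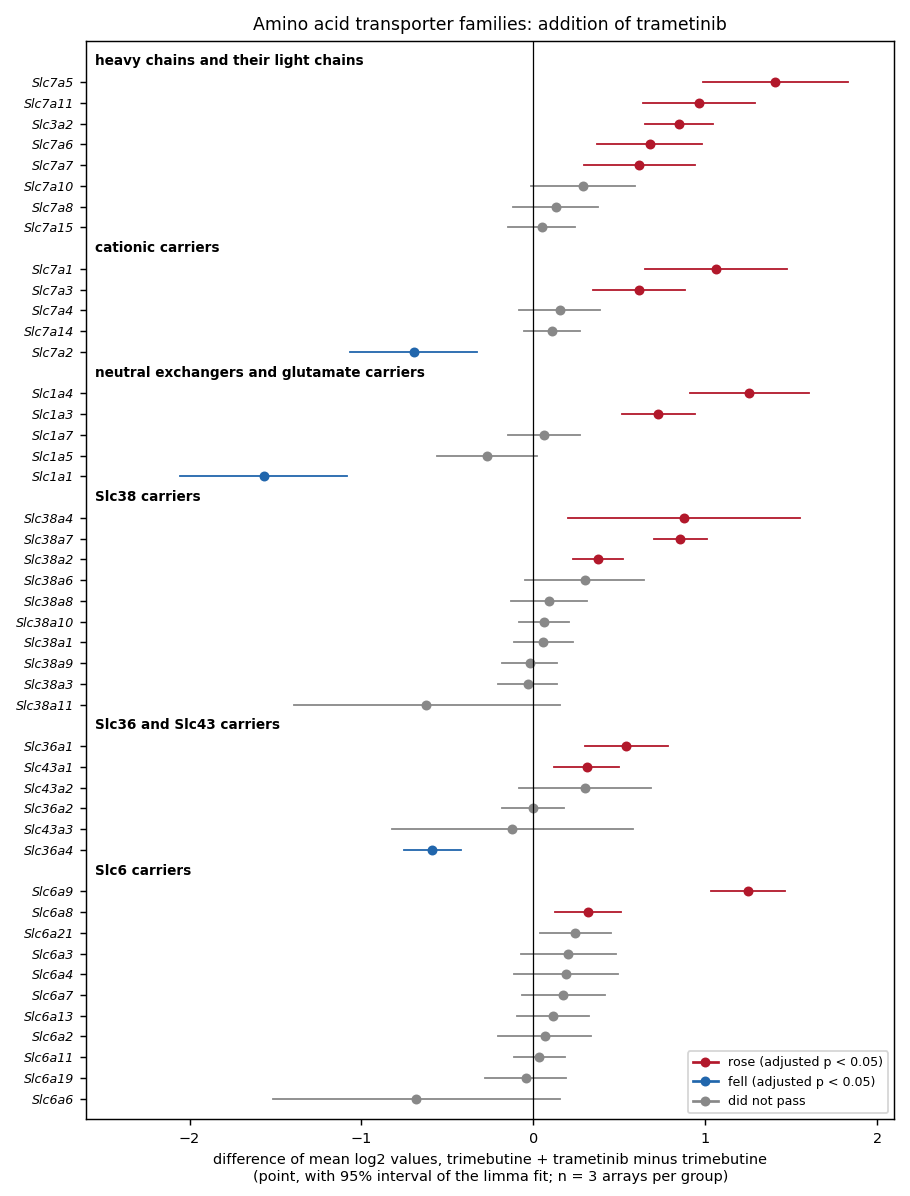
Difference of mean log2 values between trimebutine plus trametinib and trimebutine for the 45 tested transporter genes (x axis, point with the 95% interval of the limma fit, n = 3 arrays per group), grouped by role and ordered by size within each role. Red marks the 16 genes that rose, blue the 3 that fell and grey the 26 that did not pass.

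Because many carrier genes of this kind are known ATF4 targets, their promoters were searched for the letters TGATGNAAN, the amino acid response element to which ATF4 binds with C/EBP proteins, on both strands. The promoter table of RefSeq (build GRCr8) held 43 of the 57 genes, each with 300 bases, of which 250 lie before the start of the gene and 50 after it. Among the genes held there, the letters were present in 2 of the 15 that rose, Slc1a4 and Slc7a1. They were present in 0 of 1 that fell and in 1 of 27 others, Slc38a1. They were present in 3.97% of all 33469 promoters of the table, a share counted by promoter, whereas the transporters were counted by gene. The 250 bases before the start are shown 5′ to 3′ on the strand of the gene for the 3 promoters that hold the letters, which are in capitals. Slc1a4 lies on the minus strand at chr14:98761563-98761812, Slc7a1 on the plus strand at chr12:11664238-11664487 and Slc38a1 on the minus strand at chr7:129681402-129681651. The match begins 236 bases before the start in Slc1a4, where it is on the opposite strand, 30 bases before it in Slc7a1 and 142 bases before it in Slc38a1.
Slc1a4: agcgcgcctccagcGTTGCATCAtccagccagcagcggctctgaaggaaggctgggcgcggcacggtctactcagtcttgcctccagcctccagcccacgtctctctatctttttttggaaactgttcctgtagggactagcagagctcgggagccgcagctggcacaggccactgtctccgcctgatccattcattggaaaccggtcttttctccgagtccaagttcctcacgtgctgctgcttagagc
Slc7a1: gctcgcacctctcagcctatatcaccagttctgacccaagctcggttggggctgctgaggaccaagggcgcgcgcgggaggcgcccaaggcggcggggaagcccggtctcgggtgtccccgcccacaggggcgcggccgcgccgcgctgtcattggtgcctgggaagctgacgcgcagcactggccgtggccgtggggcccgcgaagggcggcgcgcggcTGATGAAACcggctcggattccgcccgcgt
Slc38a1: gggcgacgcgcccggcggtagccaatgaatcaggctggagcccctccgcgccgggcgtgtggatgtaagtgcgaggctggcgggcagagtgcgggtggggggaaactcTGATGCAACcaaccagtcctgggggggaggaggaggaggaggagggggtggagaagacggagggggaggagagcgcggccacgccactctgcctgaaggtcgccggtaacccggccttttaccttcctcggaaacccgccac
Slc1a4 and Slc7a1 rose when trametinib was added, and Slc38a1 did not pass, with a difference of 0.06 (SE 0.08, adjusted p = 0.625). A match describes these letters only, since binding was not measured here.

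The heavy chain gene Slc3a2 and 4 of its light chain genes rose together when trametinib was added. Slc3a2 encodes 4F2hc (CD98), the heavy chain that brings the light chains to the cell surface. Its log2 values were 11.42, 11.51 and 11.36 with trimebutine plus trametinib, against 10.50, 10.71 and 10.54 with trimebutine. All 3 values with trametinib lay above all those without it, and the difference was 0.85 (SE 0.09, adjusted p = 2.57e-05), a 1.8-fold rise. Slc7a5 encodes LAT1, the light chain that carries leucine and other large neutral amino acids. Slc7a5 had 10.81, 10.80 and 10.78 with trimebutine plus trametinib, against 9.39, 9.69 and 9.08 with trimebutine. It rose by 1.41 (SE 0.19, adjusted p = 0.000169), which is 2.65-fold.

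Slc7a11 encodes xCT, which takes up cystine in exchange for glutamate and so feeds glutathione synthesis. Its values were 7.41, 7.58 and 7.95 with trimebutine plus trametinib and 6.63, 6.72 and 6.70 with trimebutine, groups that did not overlap. The difference was 0.96 (SE 0.15, adjusted p = 0.000435). Slc7a6 and Slc7a7 encode y+LAT2 and y+LAT1, which exchange cationic for neutral amino acids. Slc7a6 had 8.15, 8.14 and 8.36 with trimebutine plus trametinib, against 7.49, 7.45 and 7.68 with trimebutine, and rose by 0.68 (SE 0.14, adjusted p = 0.00284). Slc7a7 had 7.98, 8.33 and 8.44 with trimebutine plus trametinib, against 7.41, 7.66 and 7.83 with trimebutine, and rose by 0.62 (SE 0.15, adjusted p = 0.00726). Replicate 3 was the highest array of Slc7a7 in all 4 groups, and so it was of Slc7a6.

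Of the 8 tested genes of this role, 5 rose, 0 fell and 3 did not pass, where 16.8% of all tested genes rose and 16.6% fell. The differences of those 3 were 0.13 for Slc7a8 (adjusted p = 0.421), the LAT2 light chain, 0.29 for Slc7a10 (adjusted p = 0.132), the Asc-1 light chain for small neutral amino acids, and 0.05 for Slc7a15 (adjusted p = 0.729). Slc7a10 passed with the replicate block (adjusted p = 0.0239). That call was lost without trimebutine replicate 1, without trimebutine plus trametinib replicate 1 and without its replicate 3, and the adjusted p ran from 0.0211 to 0.127 over the 6 such fits. The other heavy chain gene, Slc3a1, and its partner Slc7a9 were under the low-signal limit, as were Slc7a12 and Slc7a13.

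**Figure D2:**
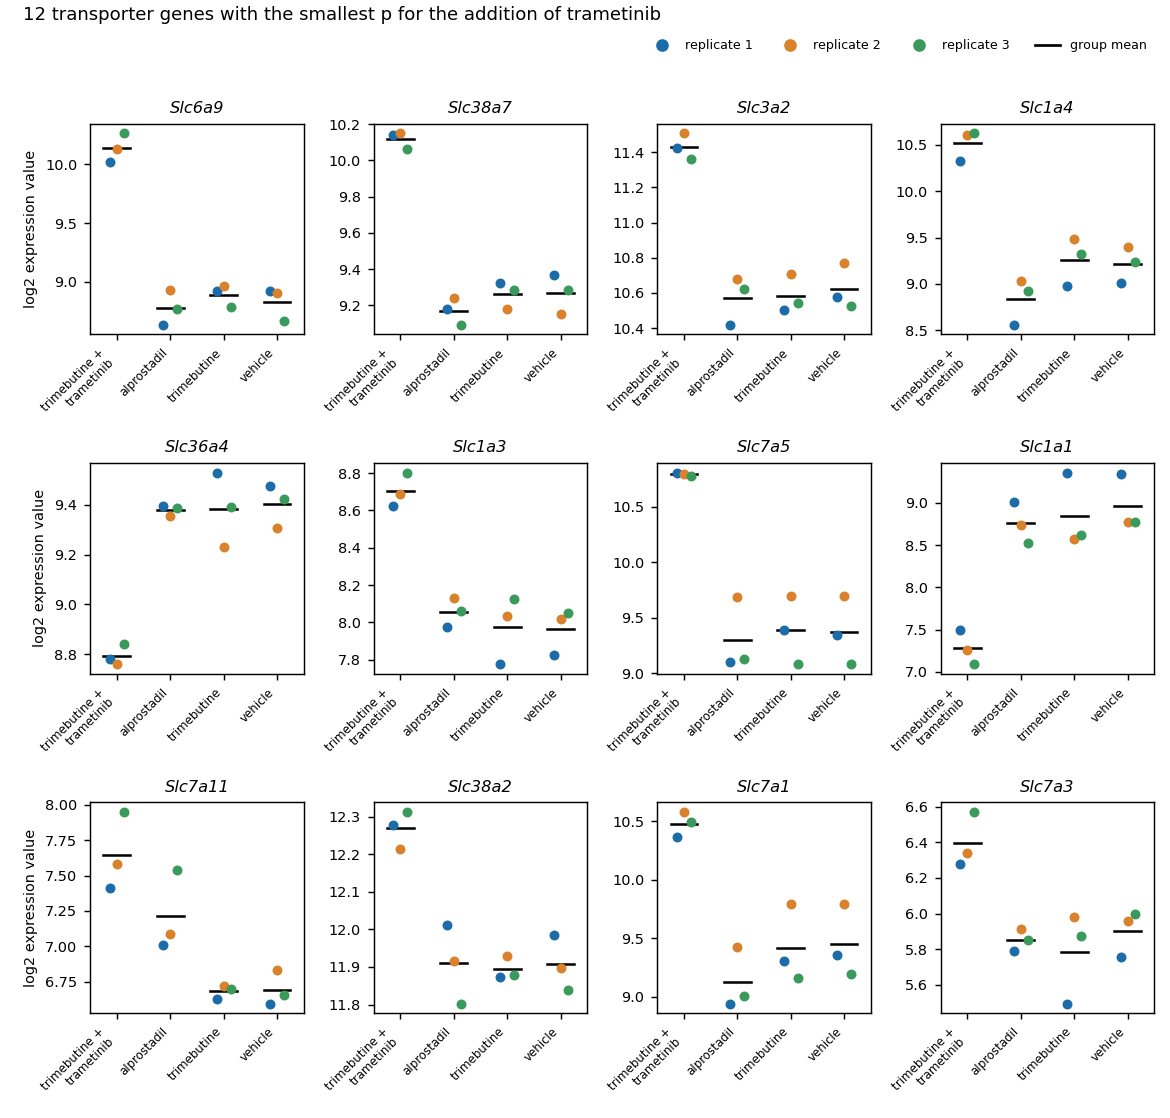
Log2 expression values of the 12 transporter genes with the smallest p for the addition of trametinib, per array, in the 4 groups (y axes differ and do not start at 0, points are arrays coloured by replicate number, black lines are group means, n = 3). In each of the 12 panels the 3 arrays with trimebutine plus trametinib lie apart from the 3 with trimebutine, higher in 10 genes and lower in Slc36a4 and Slc1a1.

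The cationic carriers moved in both directions, with 2 of 5 tested genes higher and 1 lower (16.8% and 16.6% of all tested genes). These carriers, called CATs, take up arginine and lysine without a heavy chain. Slc7a1 (CAT-1) had 10.37, 10.58 and 10.50 with trimebutine plus trametinib and 9.30, 9.79 and 9.16 with trimebutine. All arrays with trametinib were higher, and the difference was 1.06 (SE 0.19, adjusted p = 0.00113), a 2.09-fold rise. Slc7a3 (CAT-3) had 6.28, 6.34 and 6.57 with trimebutine plus trametinib, against 5.50, 5.98 and 5.87 with trimebutine, and rose by 0.61 (SE 0.12, adjusted p = 0.00227). Its mean with trimebutine, 5.78, was under the low-signal limit of 5.83, so this rise starts from a signal that the arrays measure poorly.

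Slc7a2 (CAT-2) went the other way. Its values were 7.43, 7.78 and 8.17 with trimebutine plus trametinib, against 8.44, 8.44 and 8.59 with trimebutine, and the 2 groups did not overlap. The difference was −0.70 (SE 0.17, adjusted p = 0.00774), and replicate 1 was the lowest array and replicate 3 the highest in all 4 groups. The 2 more distant relatives of these carriers, Slc7a4 and Slc7a14, had differences of 0.15 and 0.11 and did not pass.

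Among the neutral exchangers and glutamate carriers of the Slc1 family, 2 of 5 tested genes rose and 1 fell, where 16.8% of all tested genes rose and 16.6% fell. Slc1a4 encodes ASCT1, which exchanges alanine, serine and cysteine. It had 10.33, 10.60 and 10.63 with trimebutine plus trametinib, against 8.98, 9.49 and 9.32 with trimebutine. The groups lay far apart, with a difference of 1.26 (SE 0.16, adjusted p = 8.74e-05), a 2.39-fold rise. Its close relative Slc1a5 encodes ASCT2, a glutamine exchanger. Slc1a5 had 9.48, 9.47 and 9.51 with trimebutine plus trametinib, against 9.88, 9.85 and 9.53 with trimebutine. All 3 arrays with trametinib were below those without it, but the difference of −0.27 (SE 0.13, adjusted p = 0.149) did not pass. With the replicate block it passed (adjusted p = 0.0349), and it did so in 2 of the 6 fits that left out 1 array, those without trimebutine replicate 3 and without trimebutine plus trametinib replicate 3 (adjusted p from 0.00267 to 0.174 over the 6).

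Slc1a1 and Slc1a3 both encode sodium-driven glutamate carriers, EAAT3 and GLAST, and moved in opposite directions. Slc1a1 had 7.49, 7.26 and 7.09 with trimebutine plus trametinib, against 9.36, 8.58 and 8.62 with trimebutine. It fell by 2.97-fold, a difference of −1.57 (SE 0.22, adjusted p = 0.000206), and had the difference farthest from 0 among the 45 genes. Slc1a3 had 8.62, 8.69 and 8.80 with trimebutine plus trametinib and 7.78, 8.03 and 8.12 with trimebutine, and rose by 0.73 (SE 0.10, adjusted p = 0.000132). Slc1a7, another glutamate carrier gene, had a difference of 0.06 and did not pass. Slc1a2 and Slc1a6 were under the low-signal limit.

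In the Slc38 family of sodium-coupled neutral amino acid carriers, 3 of 10 tested genes rose and 0 fell (16.8% and 16.6% of all tested genes). Of the 3 calls, that of Slc38a4 was lost in most fits that left out 1 array and did not use the replicate block. Slc38a7 encodes a carrier that exports glutamine from lysosomes. Its values were 10.14, 10.15 and 10.06 with trimebutine plus trametinib, against 9.32, 9.18 and 9.28 with trimebutine, and the difference was 0.85 (SE 0.07, adjusted p = 3.81e-06), a 1.81-fold rise. Slc38a2 encodes SNAT2, a system A carrier whose amount rises in amino acid shortage. Slc38a2 had 12.28, 12.21 and 12.31 with trimebutine plus trametinib, against 11.87, 11.93 and 11.88 with trimebutine, and its rise of 0.38 (SE 0.07, adjusted p = 0.001) was small and even. Slc38a9, the lysosomal arginine sensor that acts on mTORC1, had a difference of −0.02 (95% interval −0.18 to 0.14).

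Slc38a4, another system A gene, spread widely. It had 7.74, 7.27 and 6.45 with trimebutine plus trametinib, against 6.55, 6.29 and 5.998 with trimebutine. The groups overlapped, and replicate 3 was the lowest array in all 4 groups. The difference of 0.88 (SE 0.31, adjusted p = 0.0464) passed narrowly, and with the replicate block the adjusted p was 0.000279. With the block it also passed in all 6 fits that left out 1 array (adjusted p at most 0.0025). Without the block it no longer passed in 5 of the 6 fits that left out 1 array, all but the one without trimebutine plus trametinib replicate 3, with adjusted p from 0.052 to 0.174 and differences from 0.585 to 1.01. The genes Slc38a1, Slc38a2 and Slc38a4 follow each other on chromosome 7 in the RefSeq gene table (GRCr8), with no other protein-coding gene between them, and their differences were 0.06, 0.38 and 0.88.

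Slc38a6 and Slc38a11 passed only with the block. Slc38a6 had a difference of 0.30 (adjusted p = 0.0459 with the block, 0.176 without it). It passed in 1 of the 6 fits with the block that left out 1 array, the one without trimebutine plus trametinib replicate 1. Slc38a11 had a difference of −0.62 (adjusted p = 0.0451 with the block, 0.208 without it). It passed in 2 of those 6 fits, without trimebutine plus trametinib replicates 1 and 2, and its difference ran from −0.85 to −0.27 over them. The other 4 tested genes of the family, Slc38a1, Slc38a3, Slc38a8 and Slc38a10, had differences from −0.03 to 0.09 and did not pass.

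Slc36a1 and Slc36a4, of the family of proton-coupled carriers, moved in opposite directions. Over the Slc36 and Slc43 families 2 of 6 tested genes rose and 1 fell, shares to be set beside the 16.8% and 16.6% of all tested genes. Slc36a1 encodes PAT1, which moves small amino acids together with protons and sits largely on lysosomes. It had 8.88, 8.90 and 8.86 with trimebutine plus trametinib, against 8.35, 8.20 and 8.47 with trimebutine, and rose by 0.54 (SE 0.11, adjusted p = 0.00272). Slc36a4 encodes PAT4, a high-affinity carrier of proline and tryptophan. Slc36a4 had 8.78, 8.76 and 8.84 with trimebutine plus trametinib, against 9.53, 9.23 and 9.39 with trimebutine, and fell by 1.5-fold, a difference of −0.59 (SE 0.08, adjusted p = 0.000111). Neither gene's groups overlapped. Slc36a2 (PAT2) had a difference of 0.00 (95% interval −0.18 to 0.18).

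In the Slc43 family, Slc43a1 and Slc43a2 encode LAT3 and LAT4, which carry large neutral amino acids without a heavy chain. Slc43a1 had 7.44, 7.54 and 7.51 with trimebutine plus trametinib, against 7.31, 7.17 and 7.08 with trimebutine, and rose by 0.31 (SE 0.09, adjusted p = 0.0159). That call was lost without trimebutine replicate 3 (difference 0.26, adjusted p = 0.0621) and without trimebutine plus trametinib replicate 2 (0.29, adjusted p = 0.056). Slc43a2 had 7.14, 7.29 and 7.40 with trimebutine plus trametinib, against 6.71, 6.96 and 7.26 with trimebutine. The groups overlapped and the difference of 0.30 (SE 0.17, adjusted p = 0.22) did not pass, but each replicate number was higher with trametinib. With the block Slc43a2 passed (adjusted p = 0.00478), also in all 6 such fits that left out 1 array (adjusted p at most 0.0255). Slc43a3, whose human protein is known to carry purine nucleobases rather than amino acids, had a difference of −0.12 (95% interval −0.82 to 0.58). It did not pass, also not with the block (adjusted p = 0.14, 95% interval −0.26 to 0.01).

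Of the 11 tested Slc6 genes, which encode sodium- and chloride-driven carriers, 2 rose and 0 fell, and the share of rises is close to the 16.8% of all tested genes that rose. Slc6a9 encodes the glycine carrier GlyT1. It had 10.02, 10.13 and 10.26 with trimebutine plus trametinib, against 8.92, 8.96 and 8.79 with trimebutine. No array came near the other group, and the 2.37-fold rise, a difference of 1.25 (SE 0.10, adjusted p = 2.49e-06), had the smallest p of the 45 genes. Slc6a8, the creatine carrier gene, had 10.22, 10.37 and 10.32 with trimebutine plus trametinib, against 9.82, 10.03 and 10.11 with trimebutine, and rose by 0.32 (SE 0.09, adjusted p = 0.0157). That call was lost without trimebutine replicate 1 (difference 0.23, adjusted p = 0.0671) and without trimebutine plus trametinib replicate 2 (0.28, adjusted p = 0.0605).

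Slc6a6 encodes the taurine carrier. It had 8.11, 8.98 and 9.62 with trimebutine plus trametinib, against 9.15, 9.60 and 10.02 with trimebutine. The groups overlapped and the difference of −0.68 (SE 0.38, adjusted p = 0.2) did not pass, yet each replicate number was lower with trametinib, by 1.04, 0.61 and 0.39. With the replicate block it passed (adjusted p = 0.000577), and so it did in all 6 such fits that left out 1 array (adjusted p at most 0.00436). The other 8 tested genes did not pass in either fit. They include the monoamine carrier genes Slc6a2, Slc6a3 and Slc6a4, the proline carrier gene Slc6a7 and the GABA carrier genes Slc6a11 and Slc6a13, and their differences ran from −0.04 (Slc6a19, a neutral amino acid carrier of epithelia) to 0.24 (Slc6a21).

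The 12 genes under the low-signal limit had mean log2 values over the 12 arrays from 4.15 to 5.74. They were Slc1a2, Slc1a6, Slc3a1, Slc6a5, Slc6a14, Slc6a15, Slc6a18, Slc7a9, Slc7a12, Slc7a13, Slc36a3 and Slc38a5. In a fit with no filter none of them passed for the addition of trametinib, and the smallest adjusted p was 0.105, for Slc38a5. Signals this low limit what the arrays can show.

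**Figure D3:**
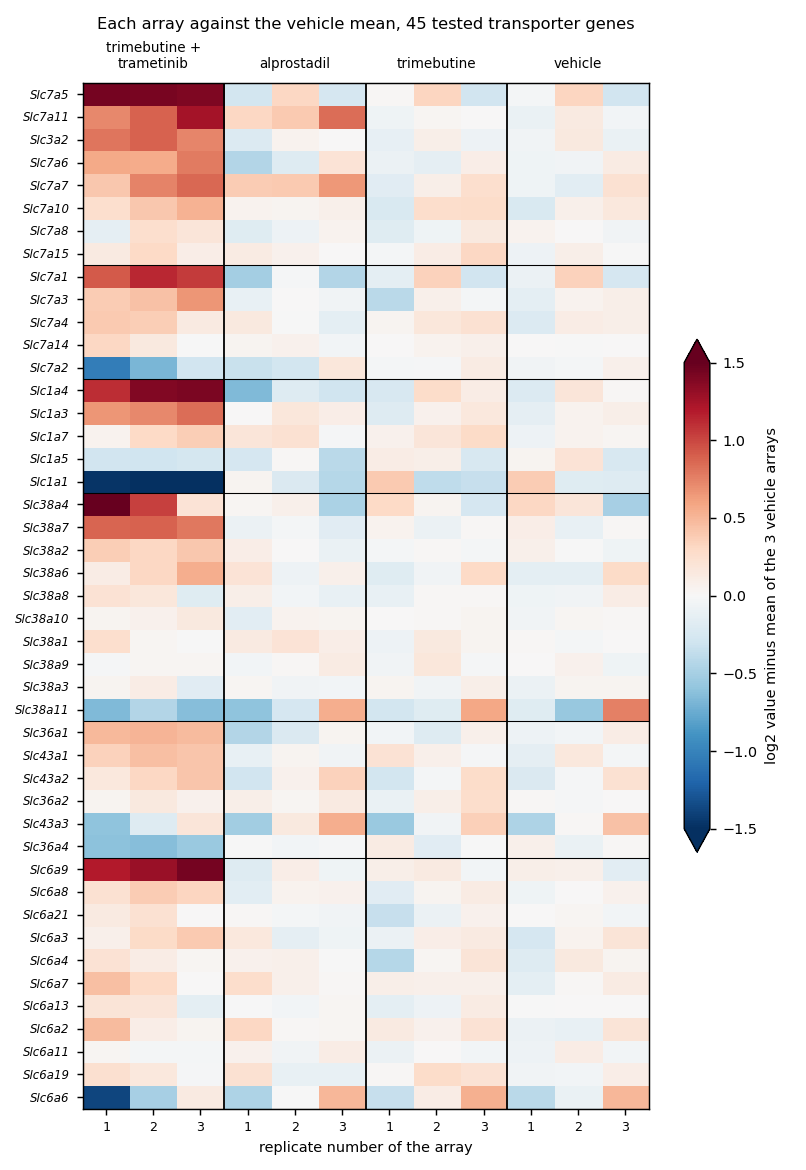
Log2 value of each array minus the mean of the 3 vehicle arrays for the 45 tested transporter genes (rows, by role), with arrays as columns in the order trimebutine plus trametinib, alprostadil, trimebutine and vehicle. Colours saturate at −1.5 and 1.5. The strong reds and blues lie in the 3 columns of trimebutine plus trametinib, and rows such as Slc6a6 and Slc43a3 shade from replicate 1 to replicate 3 within every group.

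Against vehicle, cells with trimebutine plus trametinib had 17 of the 45 genes higher, where 17.5% of all tested genes were, and 3 lower, where 17.5% were (35.0% in either direction). With the replicate block 21 were higher, where 22.1% of all genes were, and 6 lower, where 21.1% were. The block added Slc7a4, Slc1a7, Slc38a6 and Slc43a2 to the higher genes. To the lower genes it added Slc1a5, Slc6a6 and Slc43a3 (−0.20, adjusted p = 0.0205 with the block). With 1 array left out, Slc43a2 and Slc6a6 passed in all 6 such fits. Slc7a4, Slc1a5 and Slc38a6 passed in 2 each, and Slc1a7 and Slc43a3 in 1 each. The 19 genes called against trimebutine were all among the 20 called without the block, and Slc7a10 was the other, with 6.53, 6.67 and 6.79 with trimebutine plus trametinib, against 6.04, 6.35 and 6.42 with vehicle, a difference of 0.39 (SE 0.14, adjusted p = 0.0439). Its call was lost in 4 of the 6 fits that left out 1 array, those without vehicle replicates 1 and 2 and without trimebutine plus trametinib replicates 2 and 3, with differences from 0.28 to 0.43 and adjusted p from 0.0652 to 0.173. The arrays with trimebutine plus trametinib are the same in both comparisons. Side by side, the differences against vehicle and against trimebutine were 1.42 and 1.41 for Slc7a5, 1.30 and 1.26 for Slc1a4, and −1.68 and −1.57 for Slc1a1.

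Alprostadil changed none of the 45 transporter genes past the threshold, where 0.389% of all tested genes passed, 0.323% higher and 0.066% lower. At an unadjusted p under 0.05 there were 3 of the 45, and 950 of the 13636 genes. The smallest adjusted p of the 45 was 0.294. The 3 genes with an unadjusted p under 0.05 were Slc7a11, Slc7a7 and Slc1a4. They were the only ones of the 45 to pass with the replicate block, where 1.88% of all genes passed. Of these 3, 2 were higher (1.17% of all genes) and 1 lower (0.711%).

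The cystine carrier gene Slc7a11 had 7.01, 7.09 and 7.54 with alprostadil, against 6.60, 6.83 and 6.66 with vehicle. The groups did not overlap, and each replicate number was higher with alprostadil, by 0.41, 0.26 and 0.88. The difference was 0.52 (adjusted p = 0.294, and 0.0493 with the block), and it passed in 0 of 6 fits with the block that left out 1 array (adjusted p from 0.0642 to 0.189). Slc7a7 had 7.95, 7.97 and 8.23 with alprostadil, against 7.51, 7.42 and 7.81 with vehicle, a difference of 0.47 (adjusted p = 0.379, and 0.0116 with the block). All 3 alprostadil values were above all 3 vehicle values. The block call held in 4 of those 6 fits and was lost without vehicle replicate 2 and without alprostadil replicate 1 (adjusted p at most 0.0705).

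Slc1a4, the neutral exchanger gene, had 8.56, 9.03 and 8.92 with alprostadil, against 9.01, 9.40 and 9.24 with vehicle. The groups overlapped, and each replicate number was lower with alprostadil. The difference was −0.38 (adjusted p = 0.639, and 0.00819 with the block). The block call was lost without vehicle replicate 1, without vehicle replicate 2 and without alprostadil replicate 1 (adjusted p at most 0.0611). The other 42 genes did not pass in either fit.

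**Figure D4:**
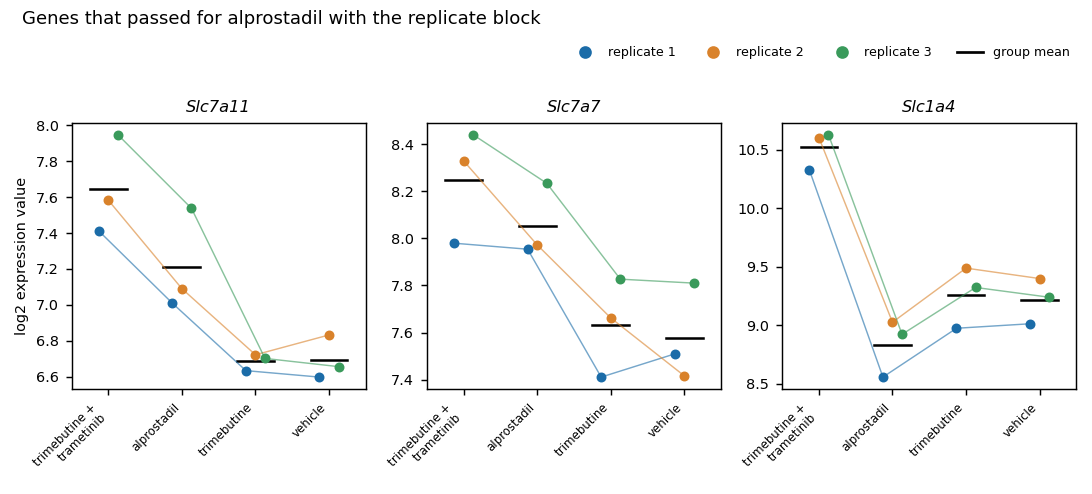
Log2 values of Slc7a11, Slc7a7 and Slc1a4 per array in the 4 groups (y axes differ and do not start at 0, points are arrays, thin lines join arrays of the same replicate number, black lines are group means, n = 3). Alprostadil arrays of Slc7a11 and Slc7a7 lie above the vehicle arrays of the same number, and those of Slc1a4 lie below them.

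Whether the combination and alprostadil differed from each other was tested directly. Trimebutine plus trametinib against alprostadil gave 16 higher genes, where 19.6% of all genes were higher, and 3 lower, where 18.2% were (37.9% in either direction). With the replicate block 18 were higher, where 24.5% of all genes were, and 5 lower, where 21.9% were. The block added Slc7a10 and Slc43a2 to the higher genes and Slc6a6 and Slc43a3 (−0.26, adjusted p = 0.0053 with the block) to the lower ones. With 1 array left out, Slc6a6 and Slc43a3 passed in all 6 such fits, and Slc7a10 and Slc43a2 in 4 each. Slc1a4 was 1.68 higher with trimebutine plus trametinib than with alprostadil (adjusted p = 8.63e-06). For Slc7a11, whose mean was above that of vehicle in both groups, the difference between the combination and alprostadil was 0.43 (adjusted p = 0.0388), a call lost without trimebutine plus trametinib replicates 2 and 3 and without alprostadil replicates 1 and 2 (differences from 0.285 to 0.47, adjusted p from 0.0673 to 0.141). For Slc7a7 it was 0.20 (adjusted p = 0.33, 95% interval −0.13 to 0.52) and did not pass. Slc7a4, a CAT relative that was not called against trimebutine, had 7.32, 7.30 and 7.05 with trimebutine plus trametinib and 7.07, 6.92 and 6.78 with alprostadil. The 2 groups overlapped, and the gene was called here (0.30, adjusted p = 0.0464, lost in 4 of the 6 fits that left out 1 array). Without trimebutine plus trametinib replicates 1 and 2 or alprostadil replicates 2 and 3 its adjusted p was 0.0981 to 0.161. Slc7a2, which was lower (−0.53), Slc38a4 and Slc6a8 also lost their calls there without some arrays, with adjusted p of at most 0.114, 0.0818 and 0.0512.

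Trimebutine alone changed none of the 45 genes, with or without the block, where 0.0% of all tested genes passed. No transporter gene had an unadjusted p under 0.05 in either fit, beside 143 of all genes without the block and 252 with it. The differences lay between −0.12 and 0.18. Their 95% intervals reached from −0.79 to 0.93, and from −0.46 to 0.53 with the block, so the arrays do not exclude differences of that size. Slc7a5 had 9.39, 9.69 and 9.08 with trimebutine and 9.34, 9.70 and 9.08 with vehicle, nearly the same value for each replicate number. Slc1a1 had 9.36, 8.58 and 8.62 with trimebutine and 9.34, 8.77 and 8.77 with vehicle, highest in replicate 1 of both groups.

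Arrays of several transporter genes differed by replicate number in every group. The same number was highest in all 4 groups for 10 of the 45 genes and lowest in all 4 for 12. Slc6a6, Slc43a3, Slc43a2 and Slc7a2 showed both, with replicate 3 highest and replicate 1 lowest. The means of the 3 replicate numbers were spread over 1.06 in Slc6a6, 0.92 in Slc43a3, 0.79 in Slc38a4 and 0.74 in Slc38a11, and the median spread of the 45 genes was 0.19. In 15 genes this spread was larger than the difference that the addition of trametinib made. Slc43a3, for example, had 7.26, 7.66 and 8.05 with trimebutine plus trametinib, 7.34, 8.01 and 8.41 with alprostadil, 7.31, 7.81 and 8.22 with trimebutine and 7.40, 7.88 and 8.31 with vehicle. The spread is a range over 3 means and was set against 1 difference, so these measures are unlike. None of these counts was taken over all tested genes, so they do not set the transporter genes apart.

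The macrophage and leukocyte markers ran in the same order. Their mean level was 7.70 to 7.97 in the 4 replicate 1 arrays, 8.43 to 8.57 in the 4 replicate 2 arrays and 8.80 to 9.24 in the 4 replicate 3 arrays. Their part in the transporter values was not tested. When trametinib was added, 1 of these 12 markers rose (C1qa, 0.52), 1 fell (Cd68, −1.03) and 10 did not pass. Over all tested genes 16.8% rose and 16.6% fell. With the replicate block 3 of the 12 rose, where 21.2% of all genes did, and 3 fell, where 20.8% did. The mean level of the 12 markers was 7.80 to 8.80 with trimebutine plus trametinib, against 7.87 to 9.13 with trimebutine. Slc38a4 ran the other way, lowest in replicate 3 of every group. All 18 pairs of arrays that share a number departed from their group means in the same way over all tested genes (r above 0), and whether a number marks an isolate is not stated in the labels.

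**Figure D5:**
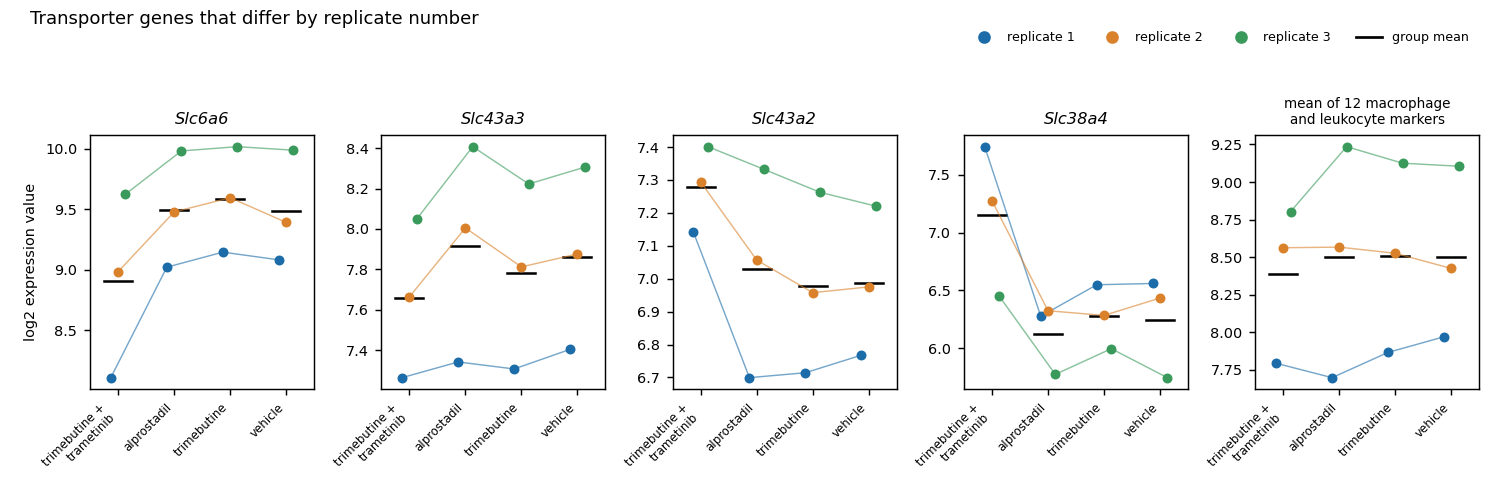
Log2 values per array of Slc6a6, Slc43a3, Slc43a2 and Slc38a4 and, in the last panel, the mean of the 12 macrophage and leukocyte markers, in the 4 groups (y axes differ and do not start at 0, thin lines join arrays of the same replicate number, black lines are group means, n = 3). Replicate 3 is highest and replicate 1 lowest in every group for Slc6a6, Slc43a3, Slc43a2 and the markers, and replicate 3 is lowest for Slc38a4.

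Genes that make, load and sense amino acids were read beside the carriers for the addition of trametinib, against the same 16.8% and 16.6% of all genes. These lists, too, were chosen with earlier results of these data known. Of 17 tested ATF4 regulators and stress targets, 12 rose, 2 fell and 3 did not pass, with a median difference of 0.51. Atf5 (1.85), Atf3 (1.34) and Ddit3 (0.74), which encode transcription factors induced by stress, rose, and Nfe2l2 (−0.59), which encodes the antioxidant regulator NRF2, fell. Atf4 itself (0.45, adjusted p = 0.000681) rose as well, which is given here after its value was seen. Of 24 genes of amino acid synthesis and interconversion, 13 rose and 4 fell (median 0.35). The proline synthesis genes Pycr1 (1.00) and Aldh18a1 (0.82), the asparagine synthetase gene Asns (0.86) and the branched-chain aminotransferase gene Bcat1 (0.61) rose. The largest difference in that list, singled out after its value was seen, was the fall of Ass1 (−2.32, SE 0.32, adjusted p = 0.000178), which encodes an enzyme of arginine synthesis.

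Of 19 tested cytosolic tRNA synthetase genes, whose enzymes load amino acids onto tRNA, 11 rose and 1 fell (median 0.35), with Wars1 (0.95), Sars1 (0.79), Aars1 (0.67) and Eprs1 (0.62) among the rises. Genes of amino acid sensing by mTORC1 divided evenly, with 4 rises and 4 falls among 21 (median 0.06). Sesn3 (−0.84), a sestrin gene, and Nprl2 (−0.34), for a GATOR1 subunit, fell, and Castor1 (0.59), for an arginine sensor, and Lamtor4 (0.27), for a Ragulator subunit, rose. Of 11 glutathione genes, 2 rose and 4 fell (median −0.09), beside the rise of the cystine carrier gene Slc7a11. The thioredoxin reductase gene Txnrd1 (−0.73), Nqo1 (−0.69) and Gclc (−0.59), which encodes a subunit of the enzyme that starts glutathione synthesis, fell, and Ggt7 (0.39) rose.

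The list of carriers outside the 7 families, not all of them specific to amino acids, showed 6 rises and 1 fall among 15 tested (median 0.18). Slc17a5 (1.02), which encodes the lysosomal carrier sialin, Ctns (0.77), for the lysosomal cystine exporter, and Slc25a38 (0.38), for a mitochondrial glycine carrier, rose. Slc25a13 (−0.74), which encodes a mitochondrial aspartate and glutamate exchanger, fell. In none of these 6 lists did a gene pass for alprostadil or for trimebutine alone without the block. With the block 3 of the 107 tested genes of these lists passed for alprostadil (2.8%, close to the 1.88% of all genes), named here after their values were seen: Bcat1 (0.24, adjusted p = 0.047) and Gclc (0.28, adjusted p = 0.0201) were higher, and Gss (−0.37, adjusted p = 0.0139), which encodes glutathione synthetase, was lower. With 1 array left out, Bcat1 and Gclc passed in 0 of 6 such fits (adjusted p up to 0.197 and 0.122), and Gss passed in 1, the one without alprostadil replicate 3 (adjusted p up to 0.0967).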

How the data were processed

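Total RNA of 12 cultures was measured on Rat Gene 2.0 ST arrays of Affymetrix, with 1 culture per array. The deposited values are log2 values from RMA in oligo, per the submitters' processing notes, with versions not given in the sources used here. RMA brings all arrays to 1 distribution of values, so the amount of RNA per cell cannot be read from them. Array medians lay between 6.41 and 6.50, and the number of arrays limits the precision.

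Of 36685 features, 18511 had 1 gene symbol in the platform annotation, 575 several and 17599 none. Only the first were used. Symbols were updated by Entrez identifier to the RefSeq GRCr8 gene table for 18394 features, and 117 kept theirs. The brightest feature stood for a symbol, and each transporter gene had 1 feature. Genes with a mean under 5.83 were left out of the tests.

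One limma 3.58.1 model (R 4.3.3) with a mean per group was fitted to all 12 arrays, with Benjamini-Hochberg adjustment over 13636 genes in each comparison. All transporter genes are accounted for: genes that passed without the replicate block have values per array. Not all genes that passed only with the block have them. Other tested genes are named with up to 4 per role or by range. Up to 4 genes per list, by smallest p, are named. Atf4, Ass1 and the block calls of Bcat1, Gclc and Gss were added after their values were seen. The transporter genes, their roles and the lists were chosen with earlier results of these data known.

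The labels give replicate numbers 1 to 3 in each group. Departures from the group means correlated at 0.21 to 0.81 in the 18 pairs of arrays that share a number and at −0.71 to 0.10 in the 36 other pairs between groups. The main fit does not use the numbers, so its standard errors include the spread between them. The replicate block, which treats the numbers as pairs, is an alternative fit. Other alternatives were the filter on low values, centring of arrays, the rule for symbols, the variance model, the groups in the fit and leaving out each array.

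On simulated data of 13636 genes, the fit for the addition of trametinib recovered 74% of 50 genes given a log2 change of 0.5 and 92% of 50 given 1, with 11 false among 193 calls. For alprostadil against vehicle 70% and 90% were recovered. The simulated arrays were drawn independently, with no pairing by replicate number. Far fewer genes were changed there than the 33.4% that passed for the addition of trametinib. These shares therefore do not measure what the fits recover in the real data.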

Additional observations from a re-analysis of the deposited data

How the results depend on the processing

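Of the 19 calls for the addition of trametinib, 16 held in every alternative in which the gene was tested, and no difference changed direction. Slc38a4, Slc43a1 and Slc6a8 lost their call in some. Of the calls against vehicle 17 of 20 held throughout, and against alprostadil 14 of 19; there Slc38a4, Slc6a8, Slc7a11, Slc7a2 and Slc7a4 lost theirs in some. Leaving out 1 array gave 13 to 18 higher genes and 3 lower genes in each run for the addition of trametinib, 14 to 19 and 3 to 4 against vehicle, 12 to 16 and 2 to 3 against alprostadil, 16 to 19 in the F test, and 0 for alprostadil or trimebutine alone. The replicate block moved the number of lower genes to 6 against trimebutine, 6 against vehicle and 5 against alprostadil, and for alprostadil against vehicle it gave 2 higher and 1 lower. With the block and 1 array left out, a choice made after seeing the data, the lower genes numbered 4 to 5, 4 to 5 and 5 to 6, and alprostadil against vehicle gave 0 to 1 higher and 0 to 1 lower. The block adds the 6 calls named above and removes none for the addition of trametinib. For the 12 genes under the low-signal limit, signal as well as the number of arrays limits what can be seen.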
